A study of Danio rerio with 12 samples.

Results

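The nuclear genes for the subunits of respiratory complex I were followed in 12 zebrafish (Danio rerio) melanomas. Every gene whose symbol in the expression table reads as an NDUFA, NDUFB, NDUFC, NDUFS or NDUFV subunit, or as ndufab1, was taken, and the assembly factors (ndufaf genes) were left out. This gave 41 of 27827 genes, and all 41 were among the 26866 genes that passed the filter on low counts. The study sequenced polyA RNA of 6 melanomas with MiniCoopR-GFP (the GFP group) and 6 with MiniCoopR-MyrRSK (the MyrRSK group), and its title names oxidative phosphorylation and melanoma invasion. Both groups carry MiniCoopR, a transgenesis vector that returns mitfa, the melanocyte master regulator, to fish that lack it, together with a gene of choice. That gene is the fluorescent protein GFP in the controls and MyrRSK, a form of the kinase RSK, in the other group; the sources used here do not give the host strain and genotype, the age of the fish or the form of RSK. The labels list no treatment and do not say that each melanoma came from its own fish, so a p-value here speaks only of the variation among these 12 samples.

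Complex I, the NADH:ubiquinone oxidoreductase, is the main entry of electrons into the mitochondrial respiratory chain. Its matrix arm takes electrons from NADH in the N module and hands them through iron-sulfur clusters to ubiquinone in the Q module, while its membrane arm, built of the ND1, ND2, ND4 and ND5 modules, pumps protons. Core subunits do the chemistry and are shared with the bacterial enzyme, and accessory subunits surround them and are needed for assembly or stability. The core subunits of the membrane arm are encoded by mitochondrial DNA and were not analysed here.

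The libraries held 61750434 to 72257237 gene counts, and no pair agreed within sampling noise (the smallest chi-square per degree of freedom of 66 pairs was 187). Outside the pair of NDUFA4L2 loci the members had 449 to 16239 counts in a library, so that the spread between melanomas, not counting error, set the precision. All 10 melanocyte lineage markers, mitfa and sox10 among them, had counts in every library. MiniCoopR itself supplies mitfa, so mitfa counts are no sign of lineage by themselves. The summed level of the 10 markers was 1820 to 36800 CPM in GFP and 4400 to 18100 CPM in MyrRSK melanomas, and was lowest in GFP 6. CPM are counts scaled to a common library size, and gene lengths were not used, so levels are compared between melanomas and not between genes. The 41 members lie on 20 chromosomes, with 5 on chromosome 9 and 4 on chromosome 1. For 6 of them, NDUFB3, ndufa7, ndufa8, ndufa13, ndufb4 and ndufb9, another gene overlaps the coordinates, and their counts are uncertain because the use of strand in counting is not given.

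Most complex I subunit transcripts had a modestly higher mean level in MyrRSK than in GFP melanomas, but no single subunit gene passed the edgeR test. The log2 fold change was positive for 38 of the 41 genes (92.7%), against 44.9% of all genes tested. Its median was 0.37, against -0.07 over all genes, and it ran from -0.98 for ndufa4l2 to 1.19 for ndufa4. With edgeR's quasi-likelihood test and a Benjamini-Hochberg adjusted p under 0.05, 0 of 41 were called higher and 0 lower, where 0.29% of all genes were called higher and 0.115% lower. Before adjustment, with p under 0.05, 17 members (41.5%) were higher and 0 lower, against 7.18% and 8.33% of all genes. limma-voom also called 0. DESeq2 called 4 higher, ndufb6, ndufa5, ndufa1 and NDUFB2, where it called 2.91% of all genes higher. The authors' deposited table rests on the same counts, and their processing notes list DESeq2, so it is not independent of that run. In it the same 4 genes were past an adjusted p of 0.05 and higher, against 2.88% of all genes that have an adjusted p there.

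Library by library, the mean log2 CPM of the 41 genes was 4.72, 4.85, 4.87, 5.16, 4.99 and 4.63 in GFP 1 to 6, a mean of 4.87 ± 0.19 (SD, n = 6). In MyrRSK 1 to 6 it was 5.31, 5.29, 5.17, 5.42, 5.11 and 5.23, a mean of 5.26 ± 0.11 (SD, n = 6). The groups met at their edges: MyrRSK 5 lay below GFP 4, and the other 5 MyrRSK melanomas lay above every GFP melanoma. GFP 1 and GFP 6 were the low libraries, holding the lowest of the 12 values for 14 and 15 members. The summed level of the members was 1360 CPM in GFP 1 and 1470 CPM in GFP 6, and reached 2109 CPM in GFP 4. In MyrRSK melanomas the sum ran from 1961 CPM in MyrRSK 5 to 2478 CPM in MyrRSK 4.

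**Figure D1:**
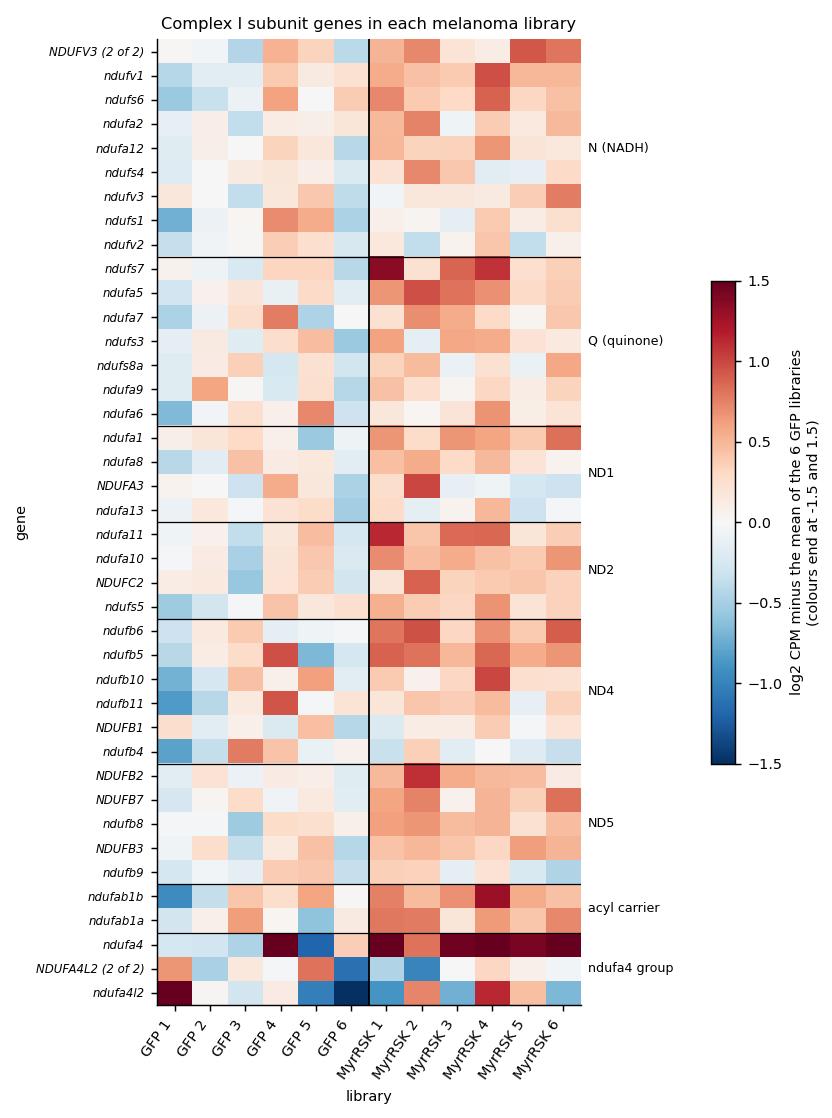
Log2 CPM of 40 of the 41 complex I subunit genes (rows, grouped by module) in each of the 12 libraries (columns), as the difference from the mean of the 6 GFP libraries. Most rows are red, above that mean, across MyrRSK 1 to 6, where 32 to 38 of all 41 members lie above it, while GFP 1 and GFP 6 are mostly blue.

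For 8 members (19.5%) at least 5 of the 6 MyrRSK melanomas lay above every GFP melanoma, against 3.02% of all genes. For 0 members did all 6, against 1.01% of all genes. Single MyrRSK melanomas placed between 8 members (MyrRSK 5) and 23 members (MyrRSK 4) above every GFP melanoma. The SD of log2 CPM within a group had a median over members of 0.33 in GFP and 0.27 in MyrRSK melanomas, and was wider in GFP for 68.3% of members. Over all genes the corresponding values were 0.66, 0.50 and 69.1%.

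In the matrix arm, the N module, where NADH is oxidised, had a median log2 fold change of 0.35 over 9 genes. Of these, 3 (33.3%) were higher at an unadjusted p under 0.05, against 7.18% of all genes. ndufv1 (ENSDARG00000036438, Zv9 chromosome 19, 9834567 to 9851048) encodes the core subunit that binds NADH and the flavin. Its lowest, median and highest levels were 106, 142 and 188 CPM in GFP and 187, 201 and 279 CPM in MyrRSK melanomas. Only MyrRSK 3 fell short of the highest GFP library, by a narrow margin, and MyrRSK 4 stood well above the rest. The log2 fold change was 0.54 ± 0.18 (SE, edgeR adjusted p = 0.181).

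The other core subunits of this module had fold changes smaller than their errors. ndufv2 (ENSDARG00000013044, chromosome 2), which carries an iron-sulfur cluster beside the flavin, was at 30.0, 37.6 and 49.3 CPM (lowest, median, highest) in GFP and 29.6, 39.9 and 51.0 CPM in MyrRSK melanomas. ndufs1 (ENSDARG00000028546, chromosome 6), the large subunit that holds the next clusters of the chain, was at 89.3, 144 and 241 CPM and at 133, 157 and 194 CPM. The groups overlapped for both, with log2 fold changes of 0.00 ± 0.19 and 0.04 ± 0.24 (SE) and edgeR adjusted p of 0.998 and 0.952. For ndufs1 the highest values of all 12 libraries were those of GFP 4 and GFP 5.

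Among the accessory genes of the N module, ndufs6, a zinc-binding subunit, had a log2 fold change of 0.47 ± 0.21 (SE, unadjusted p = 0.0467), and ndufa2, ndufa12 and ndufs4 had 0.37, 0.35 and 0.25. NDUFV3, a small subunit next to the flavin site, is represented by a pair of loci on chromosome 9. The locus named NDUFV3 (2 of 2) (ENSDARG00000090389, 20359834 to 20369167) was at 16.2, 21.8 and 31.6 CPM in GFP and 23.8, 33.7 and 41.8 CPM in MyrRSK melanomas, and 3 MyrRSK libraries exceeded every GFP library. The locus named ndufv3 (ENSDARG00000069942, 20554368 to 20565835) was at 25.8, 36.0 and 44.5 CPM and at 32.6, 38.0 and 57.1 CPM, and only MyrRSK 6 exceeded every GFP library. The log2 fold changes were 0.54 ± 0.22 and 0.25 ± 0.19 (SE, edgeR adjusted p = 0.255 and 0.559); whether they differ from each other was not tested.

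The Q module, which reduces ubiquinone, had a median log2 fold change of 0.32 over 8 genes, all with a positive value. Of these, 2 (25.0%) were higher at an unadjusted p under 0.05, against 7.18% of all genes. ndufs7 (ENSDARG00000074552, chromosome 11, 5877254 to 5887046) is the core subunit holding the last iron-sulfur cluster before ubiquinone. It was at 36.3, 48.3 and 60.5 CPM in GFP and 56.5, 75.2 and 124 CPM in MyrRSK melanomas, a log2 fold change of 0.73 ± 0.23 (SE, edgeR adjusted p = 0.154). MyrRSK 1, 3 and 4 were far above the GFP range, MyrRSK 6 was just above it, and MyrRSK 2 and 5 lay inside it.

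ndufa5 (ENSDARG00000039346, chromosome 4, 4803655 to 4805868), an accessory subunit of the matrix arm, was at 20.6, 24.6 and 30.5 CPM in GFP and 30.4, 39.9 and 48.9 CPM in MyrRSK melanomas. The groups met only where MyrRSK 5 and GFP 5 had nearly equal values. The log2 fold change was 0.64 ± 0.17 (SE, edgeR adjusted p = 0.103).

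Other core subunits of the Q module had smaller differences. ndufs3 (ENSDARG00000015385, chromosome 7), a scaffold of the module, was at 29.1, 42.9 and 58.4 CPM in GFP and 38.7, 56.1 and 64.6 CPM in MyrRSK melanomas. ndufs8a (ENSDARG00000051986, chromosome 1), with iron-sulfur clusters on the path to ubiquinone, was at 75.2, 89.2 and 116 CPM and at 84.3, 110 and 135 CPM. Both overlapped between groups, with log2 fold changes of 0.32 ± 0.20 and 0.24 ± 0.19 (SE) and edgeR adjusted p of 0.483 and 0.571. The accessory genes ndufa7, ndufa9 and ndufa6 had log2 fold changes of 0.32, 0.21 and 0.18. Over the 7 core subunits the median log2 fold change was 0.32, with 2 (28.6%) higher at an unadjusted p under 0.05. Over the 31 accessory subunits outside the NDUFA4 family the median was 0.38, with 14 (45.2%) higher. The share of all genes was 7.18%. Whether core and accessory subunits differ was not tested.

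**Figure D2:**
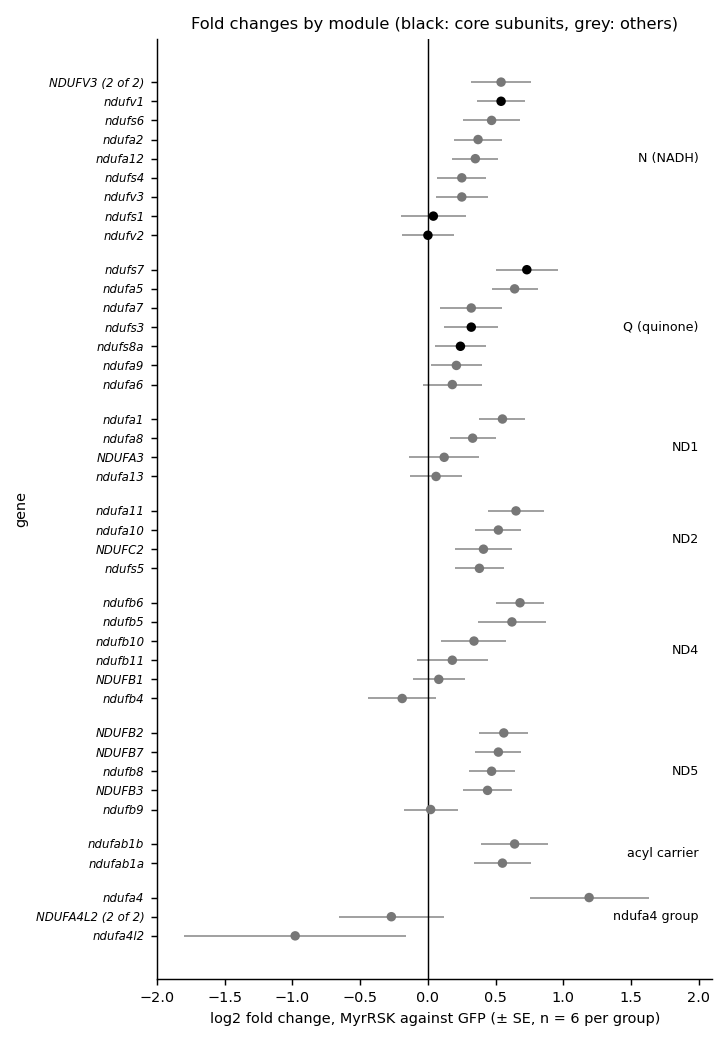
Log2 fold change of MyrRSK against GFP melanomas for 40 of the 41 genes (points; bars are SE, n = 6 per group), grouped by module, with core subunits in black. Nearly all points lie right of 0; ndufv2, ndufs1 and ndufb9 sit at about 0, ndufb4 and both NDUFA4L2 loci lie left of it, and ndufa4 and ndufa4l2 have the widest bars.

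In the membrane arm the 19 genes of its 4 modules had a median log2 fold change of 0.41. Of these, 9 (47.4%) were higher at an unadjusted p under 0.05. In the matrix arm the median was 0.32, and 5 of 17 (29.4%) were higher at that p, against 7.18% of all genes. Whether the arms differ was not tested. The ND1 module, at the joint of both arms, had a median of 0.23 over 4 genes. ndufa1 (ENSDARG00000036329, chromosome 14, 34388966 to 34390425), a small membrane subunit needed for assembly in mammals, was at 24.4, 38.3 and 44.4 CPM in GFP and 43.8, 55.3 and 64.0 CPM in MyrRSK melanomas. Only MyrRSK 2 lay inside the GFP range, at its upper edge. The log2 fold change was 0.55 ± 0.17 (SE, edgeR adjusted p = 0.149). ndufa8, NDUFA3 and ndufa13 had log2 fold changes of 0.33, 0.12 and 0.06, and without MyrRSK 2 that of NDUFA3 was -0.12.

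All 4 genes of the ND2 module had positive values, with a median of 0.46. ndufa10 (ENSDARG00000013333, chromosome 9, 24773851 to 24780609), a subunit with a nucleoside kinase fold, was at 48.1, 70.2 and 89.8 CPM in GFP and 89.4, 96.6 and 111 CPM in MyrRSK melanomas, a log2 fold change of 0.52 ± 0.17 (SE, edgeR adjusted p = 0.170). Here MyrRSK 5 was level with GFP 5, and the other MyrRSK libraries were above all GFP libraries. ndufa11 (ENSDARG00000042777, chromosome 11, 6445948 to 6451947), a membrane subunit, was at 17.2, 22.1 and 30.5 CPM and at 25.2, 34.6 and 48.6 CPM, with a log2 fold change of 0.65 ± 0.21 (SE, edgeR adjusted p = 0.158). MyrRSK 1, 3 and 4 were above all GFP libraries, as for ndufs7, and the other MyrRSK libraries lay below GFP 5. NDUFC2 and ndufs5 had log2 fold changes of 0.41 and 0.38.

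The ND4 module held both the smallest p of all members and the only negative value outside the NDUFA4L2 loci. ndufb6 (ENSDARG00000037259, chromosome 1, 24981862 to 24985819), an accessory membrane subunit, was at 23.3, 28.2 and 38.1 CPM in GFP and 35.7, 48.5 and 56.2 CPM in MyrRSK melanomas. Its log2 fold change was 0.68 ± 0.18 (SE, unadjusted p = 0.00193, edgeR adjusted p = 0.0976). MyrRSK 3 lay below GFP 3, and MyrRSK 5 was level with it. ndufb4 (ENSDARG00000019332, chromosome 24, 24579004 to 24585233) was at 22.0, 38.0 and 65.9 CPM in GFP and 30.3, 33.8 and 49.1 CPM in MyrRSK melanomas, a log2 fold change of -0.19 ± 0.25 (SE, edgeR adjusted p = 0.754). All MyrRSK values lay within the GFP range, and without GFP 3, the highest library, the log2 fold change was 0.00. The other genes of the module, ndufb5, ndufb10, ndufb11 and NDUFB1, had log2 fold changes of 0.62, 0.34, 0.18 and 0.08.

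In the ND5 module, at the far end of the membrane arm, the median log2 fold change was 0.47. At an unadjusted p under 0.05, 4 of 5 genes (80.0%) were higher, against 7.18% of all genes. NDUFB2 (ENSDARG00000045490, chromosome 4, 21415859 to 21418821), a small accessory subunit, was at 26.3, 30.1 and 34.8 CPM in GFP and 32.6, 41.9 and 63.8 CPM in MyrRSK melanomas, a log2 fold change of 0.56 ± 0.18 (SE, edgeR adjusted p = 0.151). MyrRSK 2 was high, MyrRSK 6 lay inside the GFP range, and the other 4 MyrRSK libraries were close together. NDUFB7 (ENSDARG00000033789, chromosome 1, 56319931 to 56325525), on the intermembrane face, was at 38.7, 46.1 and 55.7 CPM and at 48.1, 67.5 and 81.7 CPM, with a log2 fold change of 0.52 ± 0.17 (SE, edgeR adjusted p = 0.160). Only MyrRSK 3 lay inside the GFP range. ndufb8 and NDUFB3 had log2 fold changes of 0.47 and 0.44, and ndufb9 had 0.02.

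**Figure D3:**
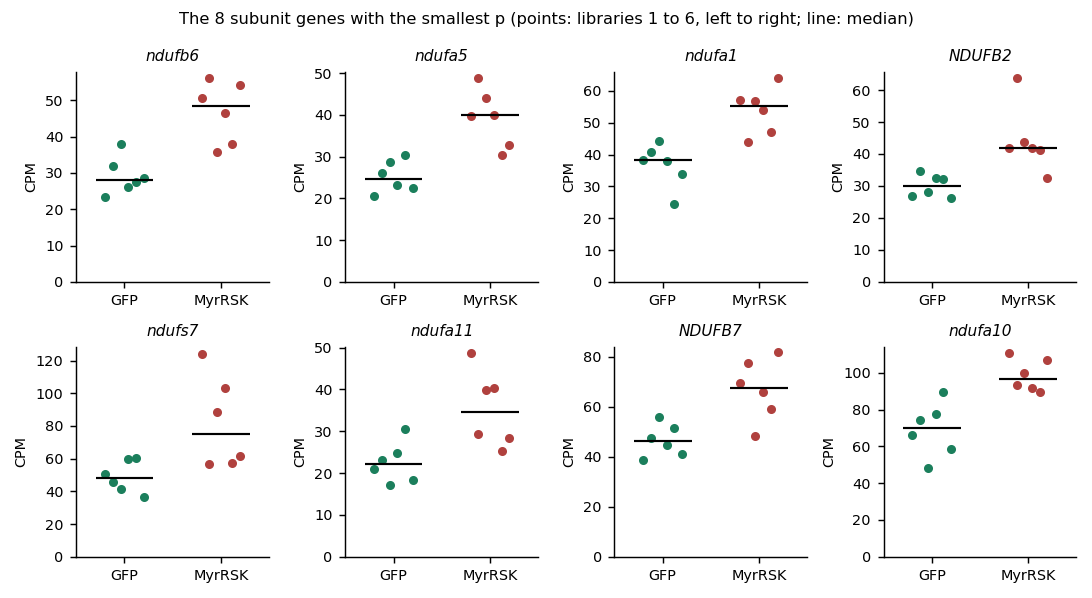
Level in CPM (vertical axes, from 0) of the 8 members with the smallest p in each GFP and MyrRSK library, with the group median as a line. In 6 of the panels a single MyrRSK point lies inside the GFP range, and in ndufs7 and ndufa11 the MyrRSK points spread from inside the GFP range to 124 and 48.6 CPM.

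The mitochondrial acyl carrier protein, which is both a subunit of complex I and the carrier of mitochondrial fatty acid synthesis, is encoded by a pair of genes. ndufab1a (ENSDARG00000058463, chromosome 1, 8194184 to 8199549) was at 25.6, 40.4 and 60.0 CPM in GFP and 44.0, 62.4 and 66.9 CPM in MyrRSK melanomas, a log2 fold change of 0.55 ± 0.21 (SE, edgeR adjusted p = 0.221). ndufab1b (ENSDARG00000014915, chromosome 3, 35620417 to 35626677) was at 13.7, 29.1 and 39.6 CPM and at 35.8, 40.4 and 64.1 CPM, with 0.64 ± 0.25 (SE, edgeR adjusted p = 0.241). For each gene every MyrRSK library was above the GFP median, and the lower ones overlapped with the upper GFP libraries. The low GFP libraries were not the same: GFP 5 was lowest for ndufab1a and highest of the GFP group for ndufab1b.

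NDUFA4 and its paralog NDUFA4L2 carry the name of complex I, but the NDUFA4 protein has since been assigned to complex IV in mammals, and NDUFA4L2 is known in mammals as a gene induced by low oxygen. Leaving out these 3 loci gave 37 positive values among 38 genes and a median of 0.38. ndufa4 (ENSDARG00000056108, chromosome 12, 10855556 to 10859059) was chosen for description after its values were seen. It was at 26.3, 25.9, 22.9, 113, 13.9 and 41.0 CPM in GFP 1 to 6 and at 96.7, 55.8, 87.4, 104, 84.8 and 125 CPM in MyrRSK 1 to 6. GFP 4 stood at the level of the MyrRSK melanomas, and the other GFP libraries were below all of them. The log2 fold change was 1.19 ± 0.44 (SE, edgeR adjusted p = 0.214). Without GFP 4, the highest GFP library, it was 1.83 with an edgeR adjusted p of 0.0257, past the threshold. With any other single library left out, the edgeR adjusted p was 0.223 to 0.333.

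The NDUFA4L2 loci were at low levels. ndufa4l2 (ENSDARG00000091163, chromosome 9, 156110 to 160683) was at 0.163, 0.728 and 7.98 CPM in GFP and 0.418, 0.786 and 1.73 CPM in MyrRSK melanomas, a log2 fold change of -0.98 ± 0.82 (SE, edgeR adjusted p = 0.602). The highest value was that of GFP 1, and without GFP 1 the log2 fold change was 0.69. NDUFA4L2 (2 of 2) (ENSDARG00000087907, chromosome 6, 59172912 to 59189026) was at 0.238, 0.562 and 0.952 CPM and at 0.262, 0.526 and 0.669 CPM, with overlapping groups and a log2 fold change of -0.27 ± 0.39 (SE, edgeR adjusted p = 0.772).

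**Figure D4:**
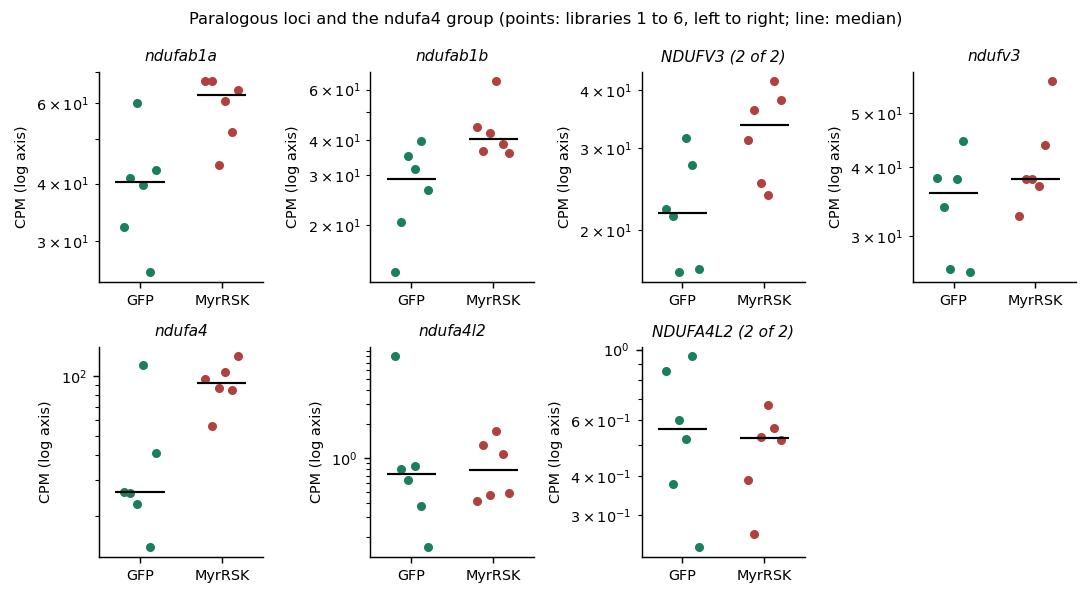
Level in CPM (log axes) in each GFP and MyrRSK library of the paired loci for NDUFAB1, NDUFV3 and NDUFA4L2 and of ndufa4, with the group median as a line. GFP 4 is the single high GFP point for ndufa4 at 113 CPM, and GFP 1 the single high point for ndufa4l2 at 7.98 CPM.

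Levels of skeletal muscle markers also moved with the group. Of 34 skeletal muscle markers, 29 (85.3%) had a positive log2 fold change, against 44.9% of all genes. At an unadjusted p under 0.05, 22 (64.7%) were higher, against 7.18% of all genes. edgeR called 3 of them higher, where it called 0.29% of all genes higher. Their mean log2 CPM was 0.03, -0.56, -0.45, 0.15, 0.24 and -0.59 in GFP 1 to 6 and 1.57, 3.19, -0.22, 3.23, 1.27 and 1.19 in MyrRSK 1 to 6. Their summed level, 354 to 1400 CPM in GFP and 462 to 1670 CPM in MyrRSK melanomas, came mostly from atp2a1, eno3 and tpm1. Of these, tpm1 was matched by current name or synonym and not by symbol. How specific the markers are to muscle was not tested. The muscle creatine kinase gene ckma was at 0.575 to 1.54 CPM in GFP melanomas and at 0.365 CPM in MyrRSK 3, and reached 91.1 CPM in MyrRSK 4. pvalb2, a muscle parvalbumin, had 0 counts in GFP 2 and GFP 3, and ckmb, a second muscle creatine kinase gene, had 0 in GFP 6. MyrRSK 3 had muscle markers in the GFP range; its mean log2 CPM of the complex I genes was 5.17 against 5.16 in GFP 4, while its summed complex I level, 2038 CPM, was below the 2109 CPM of GFP 4.

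When that muscle score entered the edgeR fit as a covariate, the members' median log2 fold change was 0.24, and 31 of 41 had a positive value. ndufa6, NDUFA3, NDUFB1, ndufa13 and ndufb9 then had log2 fold changes of -0.01, -0.42, -0.09, -0.12 and -0.36, and ndufs1 and ndufv2 had -0.24 and -0.10. The score itself differed between the groups (mean log2 CPM of -0.20 in GFP and 1.71 in MyrRSK), and the errors were wider with it. ndufb6 had 0.51 ± 0.27 and ndufa5 0.54 ± 0.25 (SE), against 0.68 ± 0.18 and 0.64 ± 0.17 without it. A lower count of members at a given p can come from wider errors or smaller fold changes, and these were not separated. With the covariate, only ndufa5 (0.54, unadjusted p = 0.0477) and ndufa1 (0.74, unadjusted p = 0.0132) were higher at an unadjusted p under 0.05, which is 4.88% of members against 5.0% of all genes. Without MyrRSK 2 and MyrRSK 4, where muscle markers were highest, 12 members (29.3%) were, against 5.6% of all genes, and the median was 0.32. Without GFP 1 and GFP 2, a pair chosen from earlier results of these data, 10 members (24.4%) were, against 7.62% of all genes, and the median was 0.34. These fits called 0 members after adjustment with edgeR.

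The 5 keratinocyte markers summed to 3450 to 8560 CPM in GFP and to 1510 to 3210 CPM in MyrRSK melanomas, without overlap. Their mean log2 CPM did overlap, at 7.76 to 10.03 in GFP and 6.88 to 8.57 in MyrRSK melanomas. Of their log2 fold changes 4 were negative, 2 of these with an unadjusted p under 0.05, and 1 was positive. Leukocyte markers summed to 448 to 1760 CPM and 1110 to 2910 CPM, with 3 of 10 higher and 2 lower at that p. Erythrocyte markers summed to 150 to 9270 CPM and 262 to 3350 CPM (1 of 6 lower), hepatocyte markers to 0.919 to 23.2 CPM and 7.61 to 178 CPM (2 of 4 higher), and heart markers to 0.307 to 2.53 CPM and 0.361 to 10.9 CPM (1 of 3 higher, 1 lower). No marker of these 5 lists, and none of the melanocyte list, was at 0 in any library. Of the 10 melanocyte markers 8 had a negative log2 fold change, with 2 lower and 0 higher at an unadjusted p under 0.05. Over all genes, 7.18% were higher and 8.33% lower at that p, and 44.9% had a positive log2 fold change. The part of any of these cell types in the complex I values was not tested, and in bulk RNA more cells of a type and more RNA per cell cannot be told apart.

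**Figure D5:**
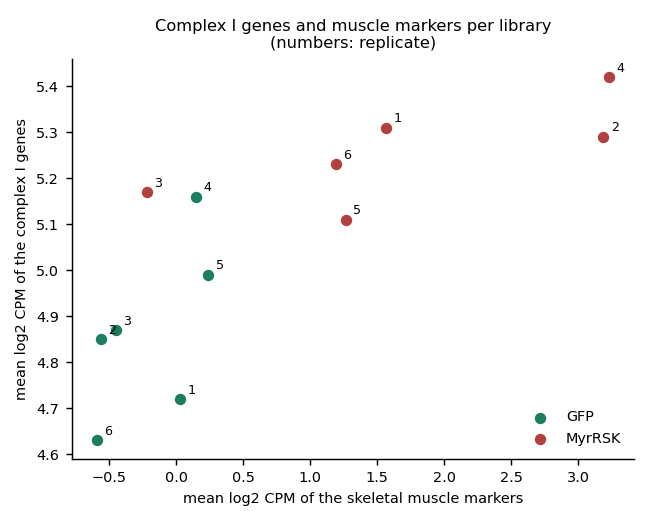
Mean log2 CPM of the 41 complex I genes (vertical axis) against the mean log2 CPM of the 34 skeletal muscle markers (horizontal axis) in each library, numbered by replicate within its group. MyrRSK 2 and MyrRSK 4 lie far right at 3.19 and 3.23, while MyrRSK 3 lies among the GFP libraries on the horizontal axis at -0.22 and at 5.17 on the vertical.

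The genes that work around complex I gave smaller medians. Assembly factors, which build the enzyme and do not stay in it, had a median log2 fold change of 0.15 over 16 genes. By an unadjusted edgeR p under 0.05, 1 was higher and 1 lower (6.25% each), against 7.18% and 8.33% of all genes. ndufaf5, which modifies ndufs7 in mammals, had 0.61 ± 0.25 (SE, edgeR adjusted p = 0.253), and NDUFAF7, a methyltransferase in mammals, had -0.63 ± 0.25 (SE, edgeR adjusted p = 0.250). ecsit and TIMMDC1 had 0.35 and 0.24. NDUFAF7 was at 6.81 to 9.71 CPM in MyrRSK and 9.60 to 23.7 CPM in GFP melanomas, with 4 MyrRSK values under the whole GFP range. ndufaf5 was at 14.4 to 36.4 CPM in MyrRSK and 9.1 to 20.9 CPM in GFP melanomas, and there only MyrRSK 3 fell within the GFP range.

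Among 24 genes of mitochondrial NADH supply, the median was 0.10. By an unadjusted edgeR p under 0.05, 3 were higher (12.5%) and 1 lower (4.17%), against 7.18% and 8.33% of all genes. hadh, an enzyme of fatty acid oxidation, was at 21.8, 24.5 and 48.7 CPM in GFP and 32.6, 59.6 and 92.9 CPM in MyrRSK melanomas (log2 fold change 1.05 ± 0.28 (SE), edgeR adjusted p = 0.0991). idh3a, of the citric acid cycle enzyme isocitrate dehydrogenase, had 0.44, pdha1b, of pyruvate dehydrogenase, had 2.05 at levels of at most 6.13 CPM, and ogdha, of 2-oxoglutarate dehydrogenase, had -0.73.

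The 13 other genes that pass electrons to ubiquinone had a median of 0.06. Of these, gpd2, the mitochondrial glycerol-3-phosphate dehydrogenase, was at 26.2, 61.4 and 87.6 CPM in GFP and 25.1, 33.2 and 41.2 CPM in MyrRSK melanomas (log2 fold change -0.86 ± 0.25 (SE), edgeR adjusted p = 0.120). GFP 6 was the single GFP library at the MyrRSK level. sqrdl, of sulfide oxidation, had 1.07 ± 0.33 (SE, edgeR adjusted p = 0.140), and CHDH, choline dehydrogenase, had -0.60. sdhb, a gene of complex II that is also counted with that complex below, had 0.33. The 12 genes of ubiquinone synthesis had a median of 0.14, with pdss2, coq4 and coq6 higher at an unadjusted p under 0.05 (0.71, 0.44 and 0.43) and adck3 lower (-0.66). Those higher and lower were 25.0% and 8.33% of that list, against 7.18% and 8.33% of all genes. Of all these surrounding genes edgeR called 0, and DESeq2 called hadh and sqrdl higher and gpd2 lower. DESeq2 called 2.91% of all genes higher.

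Of the other respiratory complexes, complex II, which also feeds ubiquinone, had a median log2 fold change of 0.09 over 5 genes, with 0 at an unadjusted p under 0.05. Complex III had 0.18 over 9 genes with 2 higher, complex IV had 0.29 over 19 genes with 5 higher, and complex V, the ATP synthase, had 0.29 over 20 genes with 4 higher. The difference of the group means of log2 CPM was 0.33, 0.30, 0.31 and 0.28 for complexes II to V, against 0.38 for complex I. For complex II this mean does not describe the typical gene. The edgeR log2 fold changes of its 5 genes ran only from -0.04 to 0.33. None of the genes of complexes II to V was called by edgeR or limma-voom. DESeq2 called 1 gene of complex III higher (uqcrq), 4 of complex IV (cox5aa, cox7a2, COX5A (2 of 3) and cox6c) and 2 of complex V (USMG5 and atp5o). It called 2.91% of all genes higher. For cox5aa, USMG5 and atp5o all 6 MyrRSK libraries lay above every GFP library. This held for 1.01% of all genes and for 0 of the 41 complex I members, a count near that share. The smallest p within complex III was that of uqcrq (log2 fold change 0.68, edgeR adjusted p = 0.108). Within complex IV it was that of cox5aa (0.72, edgeR adjusted p = 0.0798), and within complex V that of USMG5 (0.65, edgeR adjusted p = 0.0991). Whether complex I differs from complexes II to V in its change was not tested.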

How the data were processed

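Per the labels' protocols, RNA was extracted from the melanomas with a column kit, and the polyA fraction was sequenced. STAR 2.6.1d, HTSeq 0.6.0, DESeq2 and the Zv9 build are listed, with no order or settings, per the submitters' processing notes; for the annotation, the use of strand and the DESeq2 version, nothing is given in the sources used here. The authors deposited whole-number read counts per gene and library, a normalized signal (the counts scaled by the authors for each library), their log2 fold changes with standard errors, a test score and p-values. Genes with a mean normalized count under 5.08 and mitochondrial genes were not analysed here.

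The raw counts went into edgeR 4.0.16 (R 4.3.3), with its filterByExpr rule, TMM normalization and a robust quasi-likelihood model of group alone, and a Benjamini-Hochberg adjusted p under 0.05 over all genes is a call. CPM use TMM-scaled library sizes, log2 CPM has a prior count of 1, and the SE is the size of the log2 fold change divided by the square root of F. The procedure was tested on simulated data, with changes larger than the median change of the members. That test does not tell whether changes of the members' size would be called. Samples were grouped by their titles. The members and lists were chosen with earlier results of these data known. Lists were matched by symbol in the table and by current names and synonyms; 2 genes matched to the NADH supply list by synonym alone were other genes and were dropped. Named in full were the 8 members with the smallest p, the 3 with the lowest log2 fold change, loci sharing a subunit name, and the 7 core subunits, 21 genes in all, of which 1 is counted among the members but not reported here by itself; ndufa4 was added after its values were seen. For the other lists the up to 4 genes with the smallest p were named.

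Alternatives were DESeq2 1.42.0, limma-voom (limma 3.58.1), other scalings, low-count filters and prior counts, the replicate number as a block, a muscle score as a covariate, and left-out libraries with the same genes tested. Leaving out MyrRSK 2 and MyrRSK 4, or the ndufa4 group, was chosen after seeing the data. A planned search of promoters for motifs was not run, as no sequence was used here. Figures were drawn with matplotlib 3.10.9.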

Additional observations from a re-analysis of the deposited data

Results flagged for a closer look

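Of 44 groups of 6 values examined (each member named in full, in each group), 2 held a value far from the others, where chance gives about 1 in 20. Both were high values of MyrRSK 4. For ndufab1b it was 64.1 CPM against 35.8 to 44.4 CPM in the other MyrRSK libraries, and for ndufv1 it was 279 CPM against 187 to 210 CPM. The gap to the next value was 0.629 and 0.711 of the group's range of log2 CPM, past Dixon's critical value for 6 samples. On that log2 scale the high values of GFP 1 for ndufa4l2 (7.98 CPM) and GFP 4 for ndufa4 (113 CPM) were not past it. MyrRSK 4 was also the library with the highest mean of complex I genes (5.42 log2 CPM) and of muscle markers (3.23 log2 CPM). Without MyrRSK 4 the log2 fold change was 0.50 for ndufab1b and 0.45 for ndufv1, and the median of the members was 0.33.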

How the results depend on the processing

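The median log2 fold change of the 41 members (0.37) and the difference of their mean log2 CPM (0.38) stayed positive under every alternative run, at 0.24 to 0.38 and 0.23 to 0.40, and at 0.31 to 0.45 and 0.34 to 0.44 with single libraries left out; the lowest values came with the muscle covariate. Members called higher numbered 0 with edgeR under every scaling and filter tried, 4 with DESeq2, and 0 to 1 with single libraries left out (1, ndufa4, without GFP 4). The 17 members at an unadjusted p under 0.05 became 2 with the muscle covariate and 10 without GFP 1 and GFP 2. With single libraries left out they numbered 14 to 21. With the covariate the errors were wider and the median log2 fold change was smaller, and these were not separated. The 1 assembly factor became 0 with the replicate block, the muscle covariate and without GFP 1 and GFP 2, and 0 to 2 with single libraries left out.

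Over 22 alternatives the sign turned in at least 1 for 10 of the 41 members, 4 of them named in full, and the cause was not tested. The other 6 were ndufa6, NDUFA3, NDUFB1, ndufa13, ndufb9 and ndufb11; the muscle covariate turned all of these but ndufb11, which was -0.08 without GFP 1 and GFP 2. For ndufa4l2 (-0.98) the log2 fold change was 0.02 with limma-voom, 0.28 with the replicate block, 0.85 without GFP 1 and GFP 2, and -1.26 to 0.69 with single libraries left out. For ndufb4 (-0.19) single libraries gave -0.31 to 0.00. For ndufs1 (0.04) it was -0.24 with the muscle covariate, -0.15 without GFP 1 and GFP 2, -0.01 without MyrRSK 2 and MyrRSK 4, and -0.08 to 0.20 with single libraries. For ndufv2 (0.00) it was 0.00 with limma-voom, median-ratio scaling and the replicate block, -0.02 with upper-quartile scaling, -0.01 with a mean count of at least 100, -0.10 with the covariate, -0.10 without GFP 1 and GFP 2, -0.03 without MyrRSK 2 and MyrRSK 4, and -0.09 to 0.08 with single libraries.

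No pairing by replicate number was seen over all genes. Same-numbered libraries correlated at -0.15, 0.08, -0.14, 0.05, 0.03 and 0.10 in their deviations from the group means, and 0 of 6 correlated best with their own number. This check cannot exclude a batch shared by libraries of equal number. With the replicate block 17 members had an unadjusted p under 0.05, the median was 0.37 and 0 were called. Over all genes edgeR called 109, against 1573 with DESeq2, 6 with the block, 1 with the muscle covariate, 30 without GFP 1 and GFP 2, 1 without MyrRSK 2 and MyrRSK 4, and 1 to 188 with single libraries left out. Counting depth limits only the NDUFA4L2 loci, with 13 to 541 counts per library.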

Other observations

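A gene with a clone name, si:ch211-251f6.5 (ENSDARG00000094312, Zv9 chromosome 10, 7156934 to 7157675), carries the name ndufa9b in a table of current names and was not a member by its symbol. It was at 12.7, 16.2 and 27.0 CPM (lowest, median, highest) in GFP and 17.1, 19.4 and 23.3 CPM in MyrRSK melanomas. All MyrRSK values lay within the GFP range, and the log2 fold change was 0.15 ± 0.20 (SE, edgeR adjusted p = 0.749).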
